A study of Mus musculus with 15 samples.

Results

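Tandem start events were examined in genes expressed by CD8+ T cells that had seen antigen with or without costimulation. A tandem start event is a stretch of first exon that begins at 1 annotated start of transcription and runs to the next start downstream, so that the starts of one first exon follow each other with no intron between them. The members were all events of the tandem start class in the deposited table of percent spliced in (PSI) whose gene had a mean of at least 10 counts per M (CPM) over the Ag and Ag+Costim libraries. This gave 7598 of the 9634 tandem start events, and of 138940 events of any class, in 2888 genes, of which 2862 are protein-coding. The members were thus chosen by the measured level of the gene, which is given as a description, while PSI and the share of each start did not enter the choice.

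The cells were OT-I T cells of C57BL/6J mice, which all carry a transgenic T cell receptor for an ovalbumin peptide, transferred into C57BL/6J recipients that kept their own lymphocytes. In the Ag group (5 libraries) the recipients received antigen, and in the Ag+Costim group (5 libraries) they received antigen and agonist antibodies to the costimulatory receptors OX40 and 4-1BB. CD8+ cells were sorted from spleen and lymph nodes at day 4 by the labels. A further 5 libraries were of Naive OT-I cells without transfer, whose counts were not analysed here. By the study's methods the OT-I donors lacked Rag1 or Rag2, and the sort also used a donor CD45 marker and the chains of the transgenic receptor. The transferred cells therefore share 1 receptor specificity, while markers of other cell types are given below. The study gave the Ag recipients a control rat IgG, and as labelled the groups differ in the antibodies alone.

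Many promoters without a TATA box start transcription over a broad window, and annotation then records several starts within a short distance. The choice among tandem starts leaves the splice donor of the first exon in place and changes the length of the 5′ leader, the part of the mRNA that the small ribosomal subunit scans before the start codon. Leader length and sequence can alter translation, and the 5′ terminal pyrimidine tract of ribosomal protein mRNAs is the best known case. Below, the distal start is the most upstream start of a tandem group and gives the longest leader, and the proximal start is the one nearest to the splice donor.

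The first bases of several tandem groups are shown because the change between groups turned on a choice between starts at most 28 bases apart. Each run was read from the GENCODE M21 transcript that begins at the distal start and is given on the strand of the gene, in mm10 coordinates. Capitals mark the first base of each annotated start in the window. Uap1 lies at chr1:170174928-170174957 (minus strand), 4930402H24Rik at chr2:130840116-130840145 (minus), Dscc1 at chr15:55090462-55090491 (minus), Tfe3 at chrX:7762658-7762687 (plus), Sp3 at chr2:72980417-72980446 (minus), Satb1 at chr17:51826559-51826588 (minus), Fiz1 at chr7:5014240-5014269 (minus) and Klhdc10 at chr6:30401868-30401897 (plus).
Uap1: GtcgggccggcAggcttccgctccgcccct
4930402H24Rik: GcccccttggcGcaccctcgctccgccctg
Dscc1: GgatttggcgcGcttttgaagtcccgggag
Tfe3: AgtgtgGtcacttcctgtGgagtttcccca
Sp3: CccttttgggctggaggctcCaccttttgt
Satb1: AgacatggtccagctgcttcccAggcaact
Fiz1: GtgtggagactggttaGaaaatggagaggt
Klhdc10: TggagagcccggcgctaccccggcccccGt

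In Jmjd8 and Trp53bp1 the starts lie further apart, and the first 30 bases from each are shown, since Jmjd8 had the largest PSI change and Trp53bp1 the only change in transcript counts that edgeR called among the members in all 10 libraries. The capital is the annotated start itself. The Jmjd8 windows are chr17:25828867-25828896 and chr17:25829043-25829072 on the plus strand, and the Trp53bp1 windows are chr2:121271378-121271407 and chr2:121271312-121271341 on the minus strand.
Jmjd8 distal start: Gattaaatagggatgttgtgtggatgtgtg
Jmjd8 proximal start: Gcgtgctgcgcgcctgcacccgtatgttca
Trp53bp1 distal start: Gtgacgggaaaagggggagctcgcggccag
Trp53bp1 proximal start: Cctggaggggcctgggcagcgtgcagaaac

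The libraries were uneven, and more so in Ag. The estimated counts on genes, in megacounts (M), ranged from 59.6 M (Ag replicate 3) to 449.4 M in Ag and from 332.3 to 639.1 M in Ag+Costim. Markers of CD8 T cells were present in all libraries, with summed levels of 3658 to 6451 CPM in Ag and 3691 to 4321 CPM in Ag+Costim. Gzmb, which encodes granzyme B of activated cytotoxic cells, was at 11.5 CPM in Ag replicate 1 and 20.9 CPM in Ag replicate 4, against 224 to 648 CPM in the other 8 libraries, so these 2 libraries stood apart. The 4 B cell markers summed to 569.9 to 1402 CPM in Ag and 448.4 to 685.1 CPM in Ag+Costim, most of it Ighm, the 4 erythroid markers to 6.796 to 797.1 CPM (highest in Ag replicate 3) and 1.928 to 22.57 CPM, and the 5 myeloid markers to 48.04 to 112.9 CPM and 58.23 to 127.2 CPM. Cd4 lay between 0.0314 and 6.04 CPM in Ag and between 0.0571 and 0.842 CPM in Ag+Costim. The part of these differences in the start values was not tested. In bulk libraries, fewer cells of a type and less RNA per cell cannot be told apart. PSI was available as 1 value per group over all 5 libraries, so it could not be recomputed without any of them.

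The members formed 2980 tandem groups, of which 1906 held 2 starts, 694 held 3, 261 held 4 and 117 held 5 or more. The largest had 11 starts and belonged to Mocs2, which encodes molybdopterin synthase. A node, the stretch between a start and the next, had a median length of 58 bases, and 1065 nodes were 10 bases or shorter. The distal and proximal starts of a group were a median of 61 bases apart, with 10% of groups under 12 bases and 10% over 276 bases. Of the nodes, 98.2% began exactly at an annotated start of the gene, and 70.4% of the groups held the gene's outermost annotated start. The first transcribed base was a purine at 71.4% of 7463 member starts, against 68.9% of 141722 annotated transcripts, and the median GC content of the first 30 bases was 66.7% against 53.3%.

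By PSI, the proximal start led most groups of 2 starts, and a middle start most often led larger groups. In the 1906 groups of 2 starts the median PSI was 0.0828 for the distal and 0.917 for the proximal start in Ag, and 0.0699 and 0.930 in Ag+Costim. The proximal start led in 1418 (74.4%) of them in Ag and in 1430 (75.03%) in Ag+Costim. In groups of 3 starts the median PSI was 0.0272, 0.501 and 0.242 from distal to proximal in Ag, and 0.0136, 0.501 and 0.246 in Ag+Costim, and the middle start led in 361 of the 694 groups in Ag and 359 in Ag+Costim, the proximal start in 275 and 281. In the 261 groups of 4 starts a middle start led in 170 and 165, the proximal start in 79 and 83 and the distal start in 12 and 13. A single start took over 0.9 of the PSI in both groups in 1545 tandem groups (51.9%), while in 180 groups no start passed 0.6 in either.

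A readout per library was rebuilt from the estimated transcript counts, as the share of a tandem group's counts on transcripts that begin at a given start. It placed the leading start elsewhere. In groups of 2 starts with counts the median distal share was 0.863 in Ag and 0.868 in Ag+Costim, and the distal start led in 1347 of 1832 groups (73.5%) in Ag and in 1333 (72.8%) in Ag+Costim. Over groups of all sizes, both readouts put the leading start at the same place in 1005 of 2901 groups (34.6%) in Ag and in 1017 (35.1%) in Ag+Costim. Across 1514 groups of 2 starts the Spearman correlation of distal PSI with distal share was -0.118 in Ag and -0.0876 in Ag+Costim. These values are a description across genes that share libraries and annotation, and genes are not replicates. A transcript's share is set by reads along its whole model, whereas PSI uses reads at the start nodes, and the library method (SMART-Seq v4 with Nextera XT) does not mark the 5′ end of an mRNA. No value here tells which readout lies nearer to the true starts.

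**Figure D1:**
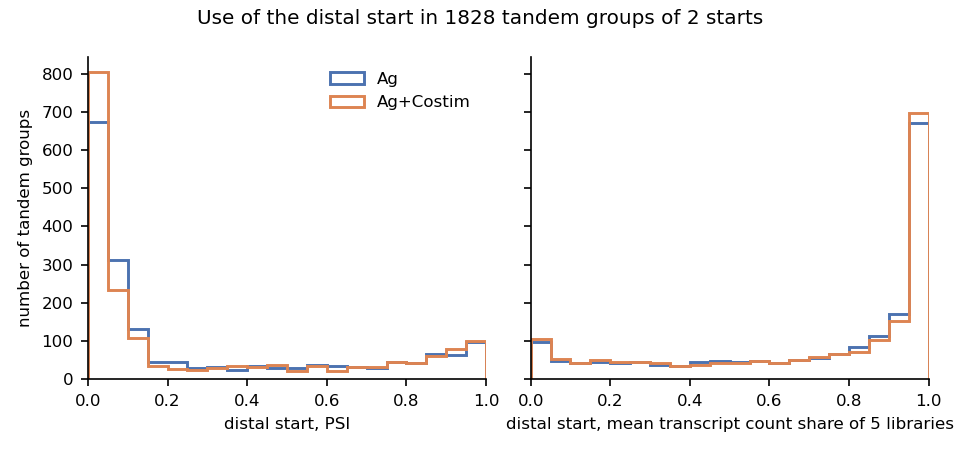
Number of tandem groups (vertical axis) by use of the distal start (horizontal axis, 0 to 1) in the 1828 groups of 2 starts with both readouts, as PSI on the left and as the mean transcript count share of 5 libraries on the right, with Ag in blue and Ag+Costim in orange. PSI piles up near 0 and the transcript share near 1, with little difference between the groups of mice in either panel.

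To ask whether costimulation moved the starts, PSI was first compared between the groups. The leading start was the same in 2826 tandem groups (94.9%) and differed in 152. The difference in PSI between Ag+Costim and Ag had a median size of 0.0135 and a 90th percentile of 0.131, and it exceeded 0.05 in 1794 members (23.6%). With the study's added condition of a Whippet probability over 0.9, 106 members passed (1.4%), with PSI higher in Ag+Costim for 52 (0.684%) and in Ag for 54 (0.711%). The background was 1.05% of all 138940 events (0.517% higher with costimulation, 0.536% lower) and 0.615% of the 100437 events in genes of at least 10 CPM (0.303% and 0.313%). Of all tandem start events 2.45% passed, and of the 2004 in genes under 10 CPM 6.49%. By class in genes of at least 10 CPM, 3.26% of tandem end events, 1.01% of alternative first exon events and 0.204% of core exon events passed. These differences between classes were not tested, since nodes of one group share reads and there is 1 value per group of mice.

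The 106 events lay in 60 tandem groups of 60 genes, and in 46 of those groups at least 2 nodes passed, as one start gained what another lost. The distal start passed in 43 cases (21 higher in Ag+Costim), a middle start in 16 (4 higher) and the proximal start in 47 (27 higher). Weighted by PSI, the mean start moved towards distal in 27 of the 60 groups and towards proximal in 33. The leading start changed in 28 of the 60. The mean start moved by a median of 10.8 bases, and the starts of these groups were a median of 53 bases apart, against 61 bases in all groups. Starts no more than 30 bases apart were found in 28.3% of the 60 groups and in 27.6% of all groups.

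**Figure D2:**
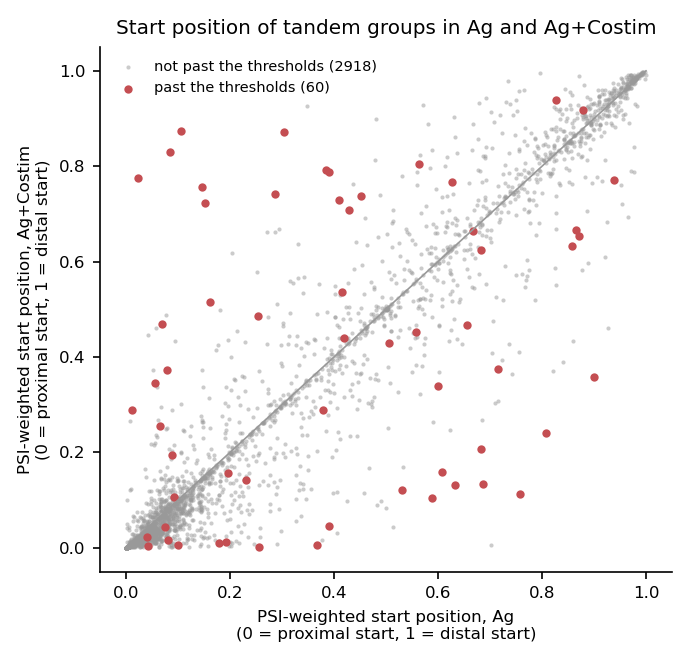
PSI-weighted start position of each tandem group in Ag (horizontal axis) and Ag+Costim (vertical axis), where 0 is the proximal and 1 the distal start; grey points are the 2918 groups without and red points the 60 groups with an event past the thresholds, and the line marks equal positions. Most groups lie near the line at its lower end, and the red points lie on both sides of it.

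Over all 2978 groups with at least 2 starts, the mean scaled position, from 0 at the proximal to 1 at the distal start, by PSI was 0.291 in Ag against 0.283 in Ag+Costim, a difference of -0.00804. The PSI-weighted position was further towards proximal in Ag+Costim in 2062 groups and towards distal in 916 (30.8%). In bases the mean distance upstream of the proximal start was 39.3 in both. Shifts of over 10 bases were found in 306 groups, 161 of them upstream and 145 downstream. Starts that were hardly used were mostly lower in Ag+Costim at either end. Distal starts with a PSI under 0.1 in both groups were lower in Ag+Costim in 1643 of 1832 cases (89.7%), with medians of 0.0171 and 0.00854, and proximal starts that low were also lower in 476 of 588 cases (81.0%), with medians of 0.0263 and 0.0195. The summed counts were 1443 M in Ag and 2246 M in Ag+Costim, and the part of depth in this pattern was not tested.

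From the transcript counts, where each library has its own value, the mean scaled position over 2844 groups with at least 50 counts in every library was 0.691, 0.7038, 0.7001, 0.695 and 0.7031 in Ag replicates 1 to 5, and between 0.691 and 0.694 in Ag+Costim. The means were 0.699 ± 0.00547 and 0.693 ± 0.00105 (SD, n = 5 per group), a difference of -0.00578. The groups overlapped, since Ag replicate 1 lay below every Ag+Costim library. Without Ag replicates 1 and 4 the difference was -0.00951, and the remaining 3 Ag libraries then all lay above Ag+Costim.

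The share of tandem start events past the thresholds was higher in genes below the limit of 10 CPM and had no steady trend above it. It was 10.5% of 428 tandem start events in genes under 1 CPM and 5.39% of 1576 between 1 and 10 CPM, while among the members it was 1.27% of 2048 between 10 and 30 CPM, 1.63% of 3314 between 30 and 100 CPM and 1.16% of 2236 from 100 CPM. The median size of the PSI difference fell along the same classes from 0.0585 to 0.00572. The 60 genes themselves had a median of 49.7 CPM and ranged from 10.9 CPM (Srr) to 613 CPM (Ube2d3), and member genes as a whole had a median of 54.2 CPM. At the limit of 10 CPM, 3110082I17Rik (9.92 CPM), Ildr1 (9.94 CPM) and 9430038I01Rik (9.98 CPM) were just left out and St7 (10.01 CPM), Odf2l (10.02 CPM) and Rnf19b (10.05 CPM) just taken in, and none of their events passed.

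Among genes that moved towards the distal start in Ag+Costim, the largest change was in Jmjd8, whose product is a JmjC domain protein of the endoplasmic reticulum. Its distal start, 176 bases upstream of the proximal one, went from a PSI of 0.106 in Ag to 0.871 with costimulation. The distal start of Popdc2, a cyclic AMP-binding Popeye domain protein of the membrane, 36 bases upstream, was at 0.0241 and 0.775. Uap1 encodes the enzyme that makes UDP-GlcNAc, the sugar donor for N- and O-linked glycosylation. Its starts are the 2 capitals in the sequence above, 11 bases apart, and the upstream one rose from 0.0839 to 0.829 in PSI. In Srr, encoding serine racemase, the first of 3 starts was at 0.111 and 0.802.

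Transcriptional regulators stood among these genes. In Tfe3, a transcription factor of lysosomal genes, the first of 4 starts went from a PSI of 0.0792 to 0.739 and the second, 6 bases downstream, from 0.919 to 0.261, while the other starts stayed at or below 0.0204. Smad2, which transmits TGF-β signals, had a distal PSI of 0.148 and 0.752. Suv39h1, a histone H3 lysine 9 methyltransferase, had 0.383 and 0.792. In Sp3, a factor that binds GC boxes, the distal start rose from 0.0701 to 0.471, and the proximal start kept the larger part. Zer1, a substrate receptor of a cullin ubiquitin ligase, was at 0.287 and 0.742, and 4930402H24Rik was at 0.303 and 0.873, again over 11 bases.

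Towards the proximal start, the largest change was in Satb1, a chromatin organiser needed for T cell development. Its distal start, 22 bases upstream, went from a PSI of 0.756 to 0.113 with costimulation. Fiz1, a zinc finger protein that binds the receptor Flt3, was at 0.8004 and 0.241 over 16 bases. Sec14l1, a Sec14-like lipid-binding domain protein, was at 0.686 and 0.134. Synj2, the phosphoinositide phosphatase synaptojanin 2, had the highest distal PSI in Ag of these genes, 0.8999, and 0.359 in Ag+Costim.

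Further genes of this direction serve varied functions. Klhdc10, a substrate receptor of a cullin ubiquitin ligase, had a distal PSI of 0.629 and 0.131, and Atp6v1a, the catalytic subunit of the vacuolar proton pump, had 0.590 and 0.103. In Slc25a25, a mitochondrial ATP carrier, the starts are 367 bases apart and the distal PSI was 0.684 and 0.207. The transcripts that begin at these starts had only 0 to 35 estimated counts per library. A count share existed in 0 Ag libraries and 1 Ag+Costim library, so the PSI change could not be set against it. Dscc1, a subunit of an alternative clamp loader for sister chromatid cohesion, was at 0.609 and 0.159, and Mfsd14b, a predicted membrane transporter, at 0.531 and 0.121 over 7 bases. In Cyth2, a guanine nucleotide exchange factor for ARF GTPases, the proximal of 3 starts rose from 0.190 to 0.582, mostly at the cost of the middle start, which was at 0.653 and 0.308 but did not pass the probability threshold.

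Some genes with smaller changes in PSI had widely spaced starts, and the 3 given here were chosen after their values were seen. In Aak1, a kinase of clathrin-coated vesicles, the starts are 536 bases apart and the distal PSI was 0.161 in Ag against 0.516 in Ag+Costim, which moved the mean start by 190 bases upstream. In Bad, a BH3-only promoter of apoptosis with starts 462 bases apart, the distal PSI was 0.368 against 0.00555. In Naa15, the auxiliary subunit of an N-terminal acetyltransferase with starts 868 bases apart, it was 0.627 against 0.767. The mean distal shares from transcript counts hardly moved, at 0.975 and 0.971 for Aak1, at 1 in both for Bad, and at 0.419 and 0.464 for Naa15.

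The genes of highest level past the thresholds, likewise named after their values were seen, were Ube2d3, a ubiquitin-conjugating enzyme (613 CPM), and Cd8a, the α chain of the CD8 coreceptor (556 CPM). The distal PSI of Ube2d3 was 0.601 in Ag against 0.340 in Ag+Costim, and that of Cd8a 0.231 against 0.142, with the proximal start of Cd8a leading in both. From transcript counts the mean distal share of Cd8a was 0.476 and 0.466, and that of Ube2d3 0.999 in both.

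**Figure D3:**
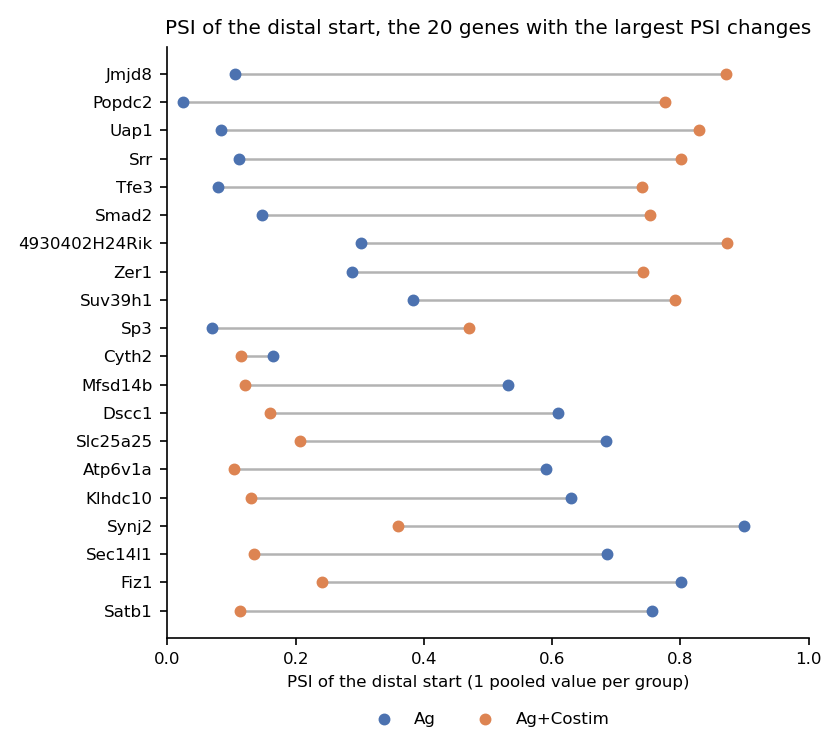
PSI of the distal start (horizontal axis, 0 to 1) in Ag (blue) and Ag+Costim (orange) for the 20 genes with the largest PSI changes past the thresholds, 10 in each direction, with 1 pooled value per group and no error bars. The lines run to the right from Jmjd8 to Sp3 and to the left from Cyth2 to Satb1; in Cyth2 the proximal start, not shown, made the change.

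The transcript counts of the same genes, which give a value per library, moved far less than PSI. For Uap1 the distal share was 68.3%, 100%, 80.7%, 100% and 71.6% in Ag and 100%, 99.9%, 80.8%, 100% and 100% in Ag+Costim. The means were 84.1% ± 15.2 and 96.2% ± 8.57 (SD, n = 5 per group), in the direction of PSI but with overlapping groups. Popdc2 also moved in the direction of PSI, with 79.0% to 100% in Ag (median 80.9%) and 92.4% to 97.2% in Ag+Costim. Srr did so as well, from 31.7% ± 27.2 to 53.5% ± 18.2, with overlapping groups. Mfsd14b had no annotated transcript at its distal start and so no share.

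Jmjd8 moved against its PSI. Its distal share was 14.6%, 2.87%, 20.4%, 5.12% and 17.3% in Ag and 11.3%, 3.08%, 11.4%, 1.68% and 3.31% in Ag+Costim, so the mean was lower with costimulation (12.1% ± 7.70 against 6.15% ± 4.79), with overlap. In Klhdc10 the share fell with PSI, from 31.9% ± 15.9 to 15.3% ± 12.2, again with overlap. In Satb1 all counts of the tandem group, 111 to 7326 per library, stood on the distal transcript in all 10 libraries. This readout could therefore show no change. Suv39h1 was likewise at 97.8% or above in every library, and Sp3 at 94.5% or above.

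In Smad2 the mean distal share was 80.5% ± 10.9 in Ag and 70.7% ± 19.4 in Ag+Costim, opposite in sign to PSI. Sec14l1 was also opposite in sign, with 13.2% ± 7.14 and 18.02% ± 5.51. Both readouts of Atp6v1a had the same sign, with shares of 82.3% ± 11.4 and 75.7% ± 14.2. The groups of libraries overlapped in each of these genes. Of the 83 events past the thresholds whose start could be tested, the share moved with PSI in 47 (56.6%), while over all 6233 members tested it did so in 49.8%. The median change of share was 0.0331 where the median change of PSI was 0.297. A change of share over 0.1 was seen in 11 of the 83 events, 8 with and 3 against the direction of PSI.

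**Figure D4:**
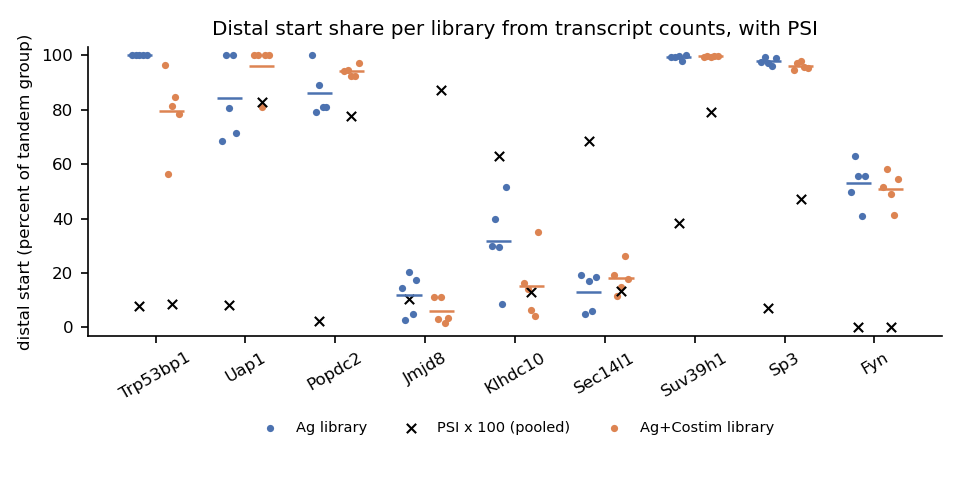
Share of the distal start in percent (vertical axis) for 9 genes, as 1 point per library from transcript counts (blue Ag, orange Ag+Costim, bar for the mean of 5) and as a cross for pooled PSI times 100. The Trp53bp1 points are all at 100 in Ag and between 56.4 and 96.4 in Ag+Costim, and in most of the other genes the points overlap while the crosses stand apart.

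The use of starts was then tested across libraries with edgeR's diffSpliceDGE over all tandem groups with counts, with Benjamini-Hochberg adjustment. Of 3008 groups, 2 were called (0.0665%) at an adjusted p under 0.05 and a change of mean share over 0.1, and of the 2536 groups of the members, 1 was called. At an unadjusted p under 0.05 there were 70 (2.76%) among the members, against 2.53% of all groups tested. Of the 60 groups past the PSI thresholds 49 could be tested and none was called, and 1, of Rsrc2, had an unadjusted p under 0.05 (0.00711 by edgeR). Without Ag replicates 1 and 4 edgeR called 1 of the 60, Zer1 (adjusted p = 0.0428), whose distal share was then lower in Ag+Costim, at 78.6% to 90.7% against 99.4% to 100% in the 3 Ag libraries, while its distal PSI was higher. In all, the test called 17 member groups without these libraries, and with limma in place of edgeR 13, so the count rests on the libraries and the tool. Trp53bp1 was among the calls in every setting tried.

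The called gene was Trp53bp1, which encodes 53BP1, a protein that directs the repair of DNA double-strand breaks towards end joining. Its distal node (chr2:121271342-121271407) and proximal node (chr2:121271272-121271341) belong to 2 coding transcripts with a shared start codon. The proximal start was listed at 0 counts in all 5 Ag libraries and took 3.61%, 43.6%, 18.5%, 15.5% and 21.4% of the counts in Ag+Costim, so the groups did not overlap. The mean in Ag+Costim was 20.5% ± 14.6 (SD, n = 5; edgeR's adjusted p = 7.79e-06), with 2413 to 29647 counts on the tandem group per library. PSI did not show this change, since the proximal start was at 0.925 in Ag and 0.913 in Ag+Costim. A transcript listed at 0 in every library of a group can be one that the estimate did not assign.

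Adjusted p-values under 0.05 with smaller changes of share were found by edgeR in Mpv17, an inner mitochondrial membrane protein (adjusted p = 0.00619, largest change of share 0.0570), and in Cad, the enzyme of the first steps of pyrimidine synthesis (adjusted p = 0.00805, 0.0119). The largest change in Mpv17 was at its distal start, where the libraries overlapped. In both genes a middle start was listed at 0 in all 5 Ag libraries, as the proximal start of Trp53bp1 was. That middle start took 1.31% to 2.45% in Ag+Costim in Mpv17 and 0.53% to 3.05% in Cad. Such a transcript can again be one that the estimate did not assign. Library shares without overlap were found at 46 member starts that were higher in Ag+Costim (0.740%) and at 50 that were lower (0.805%) of 6215. The background over all starts tested was 0.818% and 0.86%, so the members stood near it. The largest of these differences, chosen here after their values were seen, was at the distal start of Tsen34, a subunit of the tRNA splicing endonuclease. It ranged from 40.0% to 97.6% in Ag and from 19.1% to 35.3% in Ag+Costim. Next in size were the proximal start of Anapc15, with means of 85.6% and 40.9%, and the distal start of Iqce, with 95.6% and 61.3%. After these came the distal start of Chpf, a chondroitin polymerising factor, which ranged from 2.02% to 36.5% and from 37.9% to 56.8%. PSI of these starts in Ag and Ag+Costim was 0.0161 and 0.0105 in Tsen34 and 0.988 and 0.997 in Anapc15. It was 0.876 and 0.858 in Iqce and 0.451 and 0.476 in Chpf. None of these genes was called by edgeR in the 10 libraries. With limma, Tsen34, Iqce and Chpf were called and Anapc15 was not, and edgeR called Tsen34 without Ag replicates 1 and 4.

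Only Uchl5 had both a start past the PSI thresholds and library shares without overlap, among the 79 such events with counts in all libraries. These were 2 of the 79 events, and both were starts of the same tandem group. Of all member starts 0.740% were higher and 0.805% lower in Ag+Costim without overlap. By edgeR's test of start usage the Uchl5 group was not called (unadjusted p = 0.727). Uchl5 encodes a deubiquitinase of the proteasome. Its proximal start, 9 bases downstream of the distal one, went from a PSI of 0.744 to 0.999, and had a share of 36.5% ± 1.84 (34.6% to 38.5%) in Ag and 42.5% ± 2.04 (40.8% to 46.0%) in Ag+Costim. It too was named after its values were seen.

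Lists of genes for T cell functions and RNA processing were counted next. In the list of T cell receptor and costimulation signalling, 28 of 72 genes had a member event, and 1 gene, Fyn, passed. Fyn is a Src family kinase of the T cell receptor pathway. Its second of 3 starts went from a PSI of 0.708 to 0.835 with costimulation and its proximal start, 5 bases downstream, from 0.292 to 0.165, while the distal start stood at 0.00103 and 0.000617. From transcript counts that distal start held 53.0% ± 8.11 and 50.9% ± 6.38. Satb1 was the 1 gene past the thresholds of 14 T cell fate transcription factors with a member.

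Among translation factors, 1 of 15 genes passed, Eef1d, which encodes a subunit of the exchange factor that recharges eEF1A with GTP. The sixth of its 7 starts was at 0.241 in Ag and 0.00276 in Ag+Costim and the seventh, 9 bases downstream, at 0.759 and 0.997. Of 10 genes for cleavage and polyadenylation 1 passed, Cpsf4, a zinc finger subunit of the complex that recognises the polyadenylation signal, with its proximal start at 0.264 and 0.0903. None passed among 58 splicing factor genes with 172 members, 18 cytokine, chemokine and homing receptor genes, 5 effector genes, 22 cell cycle genes, 15 interferon and MHC class I genes and 14 glycolytic and mitochondrial genes. The share of members past the thresholds was 2.82% in the T cell receptor list, 4.0% in the transcription factor list, 4.26% in the translation list and 3.45% in the polyadenylation list, each resting on 1 gene, against 1.4% of all members. Ptbp3, a splicing regulator named by the rule whatever its values, had its leading start at 0.988 in Ag and 0.989 in Ag+Costim in a group of 5 starts. In its further group of 2 starts the proximal start led, at 0.982 and 0.973. From transcript counts the distal share was 49.8% ± 5.99 and 40.5% ± 7.22 in the group of 5. It was 36.2% ± 49.6 and 74.1% ± 41.6 in the group of 2, and the libraries overlapped in both.

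By PSI a single proximal start led most tandem groups of ribosomal protein genes. Of 90 genes 31 had a member event, in 32 tandem groups with 77 events, and none passed. By PSI the proximal start led in 31 of the 32 groups and a middle start in 1, and in 30 groups the leading start had a PSI over 0.9 in both Ag and Ag+Costim. Some of the leading proximal nodes were very short. Their length was 2 bases in the second group of Rps9, 4 in Rpl36al, 5 in Rpl9 and 6 in Rpl31 and Rps14. Whether transcription begins at such nodes was not tested. Their median scaled position was 0.00231 in Ag and 0.000837 in Ag+Costim, against 0.118 and 0.101 over all groups. The transcript counts placed the leading start at the distal end in 21 of 29 of these groups and at the proximal end in 7.

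A terminal pyrimidine tract, taken as C followed by 4 bases that are each C or T on the transcribed strand, stood at 6 of the 32 ribosomal protein starts with the highest PSI (18.8%) and at 3 of their 42 other starts (7.14%), against 2.0% of all member starts and 2.02% of annotated transcripts. At the ribosomal protein starts with the highest transcript share it stood at 1 of 29 (3.45%). A match is a description of the annotated first bases only. As examples, Rpl30 (chr15, minus strand) and Rps13 (chr7, minus strand) encode proteins of the large and the small subunit. The proximal start of Rpl30 had a PSI of 0.998 and 0.999 and a count share of 40.6% ± 6.07 and 46.3% ± 1.66, and that of Rps13 a PSI of 0.997 and 0.999 and a count share of 4.42% ± 2.72 and 2.46% ± 1.09. Their first 30 bases from the proximal and the distal start are shown with the tract, or otherwise the first base, in capitals.
Rpl30 proximal start: CCTTTctcgctccccggccatcttggcggc
Rpl30 distal start: Gatcagcggcgggtggacagagatgcctcc
Rps13 proximal start: CTCTTtgctgccagacctccgccatcatgg
Rps13 distal start: Gtcggtgagtggcgtcacttcctgtgcggc

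The transcripts of a tandem group mostly encode the same protein start. The same annotated start codon was used from all starts in 51 of the 60 groups past the thresholds (85.0%) and in 2479 of all groups (83.2%), and different start codons in 6 (10%) and 348 (11.7%). Jmjd8 was among the 6. Other events past the thresholds, of any class, lay in 3 of the 60 genes (5.0%) and in 230 of all 2888 member genes (7.96%), and tandem end events past them in 1 (1.67%) and in 122 (4.22%).

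The levels of the member genes were compared in the same libraries. By edgeR's quasi-likelihood test none of the 2888 member genes was called (background 0.0% of 24262 genes), with 700 at an unadjusted p under 0.05, 622 of them higher in Ag+Costim and 78 lower, where the background over all genes tested was 7.89% higher and 10.7% lower. That background covers genes of all levels, and a split by direction is not given for genes of at least 10 CPM. In both directions together, an unadjusted p under 0.05 was found for 24.2% of the members and 23.1% of the 8650 genes of at least 10 CPM. DESeq2 called 404 members, 309 higher and 95 lower (background 22.3% of the 36101 genes with an adjusted p), which was 13.99% of the members and 13.0% of genes of at least 10 CPM. The median log2 fold change, Ag+Costim against Ag, was 0.23 for the members and 0.24 for genes of at least 10 CPM with TMM scaling, and 0.10 for the members with DESeq2 size factors.

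Of the 60 genes with an event past the PSI thresholds, DESeq2 called 7, and 12 had an unadjusted p under 0.05 by edgeR. Their log2 fold changes ranged from -0.47 to 1.19 with a median of 0.27. Fiz1 was at 28.4 to 38.4 CPM in Ag and 42.8 to 49.6 CPM in Ag+Costim after TMM scaling, without overlap (log2 fold change 0.47 ± 0.12 SE, edgeR's adjusted p = 0.176, DESeq2's 0.0411). Tfe3 was at 9.87 to 26.7 CPM and 27.0 to 33.9 CPM (0.54 ± 0.23 SE, edgeR's adjusted p = 0.266, DESeq2's 0.232). Dscc1 was at 5.13 CPM and 5.27 CPM in the Ag libraries with low Gzmb and at 26.1 to 50.9 CPM in the other Ag libraries, against 41.2 to 56.7 CPM in Ag+Costim, and Suv39h1, at 36.1 and 40.5 CPM in those libraries and 92.1 to 177.4 CPM in the other Ag libraries, had the same split.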

How the data were processed

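Poly(A) RNA of sorted CD8+ T cells was sequenced from 15 libraries, of which 10 (5 Ag, 5 Ag+Costim) have counts here. The authors ran Whippet (version not given in the sources used here) and deposited PSI as a fraction with 1 value per group, a probability that is a score and not a p-value, and a signed difference, which was not used. The authors also deposited estimated counts per gene and transcript, made with HISAT2 2.1.0, SAMtools 1.9 and StringTie 2.1.0 on mm10 with GENCODE M21. These counts derive from read coverage and exceed the number of reads, so their totals measure relative depth only. StringTie divides reads among overlapping transcripts, so start shares depend on whole transcript models and carry no counting interval.

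Event genes were matched to the count table by symbol (9367 events), older symbol (209), symbols turned into dates (14) or a touching node (12), and 32 were left out. Entries without a gene identifier (26345, with 0.0458% to 0.308% of counts) were left out. Touching start nodes formed a tandem group, and transcript counts were summed by annotated 5′ end. R 4.3.3 with edgeR 4.0.16, limma 3.58.1 and DESeq2 1.42.0 was used, with Python 3.11.15. Start usage was tested with edgeR's diffSpliceDGE (Simes p per group, adjusted by Benjamini-Hochberg over all groups) and expression with edgeR's quasi-likelihood test, both with filterByExpr and TMM and tested on simulated data. The simulated counts had the same fixed spread for all genes and starts, so they do not show how many changes the tests miss at the spread of these libraries. Each gene's log2 fold change has its standard error. The study names the libraries biological replicates, while the labels name no animals, so p-values measure the spread between these samples.

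Genes were named by rule, as the 10 largest PSI changes past the thresholds in each direction, called genes for start usage, list members past the thresholds, and Ptbp3 and Gbp4 by name. Gbp4 had no tandem start event among the members. The members, lists and rule were chosen with earlier results of these data known. Alternatives are given in the closing section, and leaving out Ag replicates 1 and 4 was chosen after seeing the data.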

Additional observations from a re-analysis of the deposited data

Results flagged for a closer look

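For the named genes and the mean start position, 48 groups of libraries were searched for 1 library far from the others by Dixon's test, which by chance picks about 1 in 20. It picked 5, all shares of a distal start from transcript counts. For Dscc1, Ag replicate 3, the library of least depth, was at 73.3% with the other Ag libraries between 51.4% and 57.2%, and Ag+Costim replicate 4 was at 62.8% with the others between 52.9% and 55.4%. For Fiz1, Ag replicate 5 was at 96.4% with the other 3 Ag libraries that had counts at or below 1.66%. For Zer1, Ag replicate 1 was at 22.3% with the others at 98.7% or above. For Uap1, Ag+Costim replicate 3 was at 80.8% with the others at 99.9% or above. In each of these genes the PSI change stands as 1 value per group, so the part of the single library in it was not tested.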

How the results depend on the processing

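The 106 tandem start events past the thresholds became 98 with a PSI difference over 0.1, 52 with a probability over 0.95, 55 in genes of at least 50 CPM, 191 from 1 CPM and 236 with no limit on the level. The 1 member group called for start usage stayed 1 with DESeq2 size factors, a filter of 50 counts in 5 libraries or a share change over 0.2, and became 2 with a share change over 0.05 or with starts under 50 bases apart merged, 5 with no filter, 13 with limma, 17 without Ag replicates 1 and 4 together, and 2 to 10 with single libraries left out (10 without Ag replicate 2, 8 without Ag replicate 5). Trp53bp1 was called in every one of these settings. The cause was not tested. Expression called 0 members under every setting except DESeq2, which called 404; at an unadjusted p under 0.05 edgeR had 461 to 1197 with single libraries left out. The mean shift of start position was -0.00742 by PSI and -0.00562 by counts with starts weighted by order, and -0.00768 to -0.0045 by counts with single libraries left out.

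Replicate numbers were not used to pair the samples in the main tests. Same-numbered libraries had correlations of deviations of 0.169, 0.029, -0.0803, -0.289 and 0.02. These were not set against libraries of different numbers, so they cannot decide whether the samples are paired. With the number as a replicate block, start usage called 2 member groups (Rspry1 and Trp53bp1) and expression 0. Depth limits the Ag side most, since Ag replicate 3 has the lowest total, 59.6 M, and PSI has no replicates at all.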
